A study of Mus musculus with 6 samples.

Results

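The 10 genes described here were chosen by their part in the nervous system and selected on a higher log2 fold change in mouse embryonic stem (ES) cells that lack Tex19.1. They are the transcription factor genes Pax6, Neurod1 and Sox21, the neuronal tubulin gene Tubb3, the guidance genes Nrp2 and Slit2, the potassium channel gene Kcnj3, the hormone precursor gene Trh, and the membrane protein genes Prom1 and Hhip. They were found by gene symbol in the authors' deposited table of one genotype comparison, and all 10 were present among its 10128 genes. The choice drew on the fold changes of that same table, so the members' own fold changes are given as a description and support nothing. RNA had been sequenced from 6 libraries, 3 of Tex19.1+/- cells with 1 intact copy of the gene and 3 of Tex19.1-/- cells with 0, all from E14Tg2a, an ES line of 129/Ola background, at passages 12 to 18 and grown on gelatin in serum with leukaemia inhibitory factor. The labels do not say whether the libraries of a genotype came from separate clones or cultures, so the p-values may measure technical spread only. A wild-type group was not analysed here, so Tex19.1-/- cells are compared with cells that had already lost one copy.

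Tex19.1 is active in the germ line, the placenta and pluripotent cells. Pluripotent cells can form all tissues of the embryo, and the nervous system arises from the ectoderm when signals that hold that fate back, such as BMP, are low. In that process SOX and PAX factors set up neural progenitors, proneural factors with a basic helix-loop-helix (bHLH) domain push progenitors to become neurons, and the young neurons build axons that are steered by secreted cues and their receptors. ES cells in serum express many such genes at low levels without being neural.

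No value of a single library was used, so each gene has 1 log2 fold change, 1 mean expression in read counts scaled to library size (CPM) and 1 p-value, with no spread to print, and the depth of each library is unknown. Tex19.1 itself had the lowest log2 fold change of all genes, -6.92, in the authors' deposited table, and the direction of every other value was read from it, as the file names none. Over all genes, with an adjusted p under 0.05, 25.2% were higher in Tex19.1-/- cells and 26.5% were lower, so a call in either direction was common. The median log2 fold change of all genes was 0.00 (0.0031). Markers of other cell types moved as well. All 11 measured endoderm markers fell, and their summed level went from 736 CPM in Tex19.1+/- to 296 CPM in Tex19.1-/- cells, with 7 of the 18 listed not analysed here. Of 5 measured genes of the Y chromosome 4 fell, with log2 fold changes between -2.83 and -0.09 for all 5 in the authors' deposited table. The 11 of 12 measured pluripotency markers were abundant in both genotypes, as the label of the cells has it, with 6190 CPM and 6034 CPM in sum. Summed levels of the measured markers were 88.8 and 77.5 CPM for neural crest (2 of 9), 61.3 and 81.1 CPM for trophoblast (3 of 9), 118 and 130 CPM for surface ectoderm (6 of 10), and 1035 and 1123 CPM for fibroblasts (3 of 12). These sums hide moves in both directions. For neural crest 0 rose and 1 fell, and for trophoblast 2 rose and 1 fell. For surface ectoderm 2 rose and 3 fell, and for fibroblasts 1 rose and 2 fell. The fibroblast riser, Fn1, made up 796 and 934 CPM of that sum. Of mesoderm markers 1 of 10, Eomes, was measured, and it did not pass. What part these shifts have in the results below was not tested. In RNA from whole cultures, more cells of a kind and more RNA per cell cannot be told apart.

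The members spanned a wide range of levels, and most of them were scarce. From the mean and the fold change a level in each genotype can be derived, on the assumption that both genotypes weigh equally in the mean. Trh was by far the most abundant, at 90.3 CPM in Tex19.1+/- and 244 CPM in Tex19.1-/- cells. Tubb3 followed at 46.0 and 61.5 CPM. Pax6 went from 18.2 to 33.2 CPM and Sox21 from 19.2 to 32.3 CPM. Nrp2 went from 9.74 to 22.4 CPM and Neurod1 from 7.14 to 13.0 CPM. The other 4 members had lower means: Hhip was at 3.49 and 10.1 CPM, Prom1 at 2.71 and 7.57 CPM, Slit2 at 2.36 and 6.87 CPM, and Kcnj3 at 1.81 and 8.65 CPM. Of the 10 members, 8 lay below the median gene of the table, which had a mean of 33.0 CPM.

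**Figure D1:**
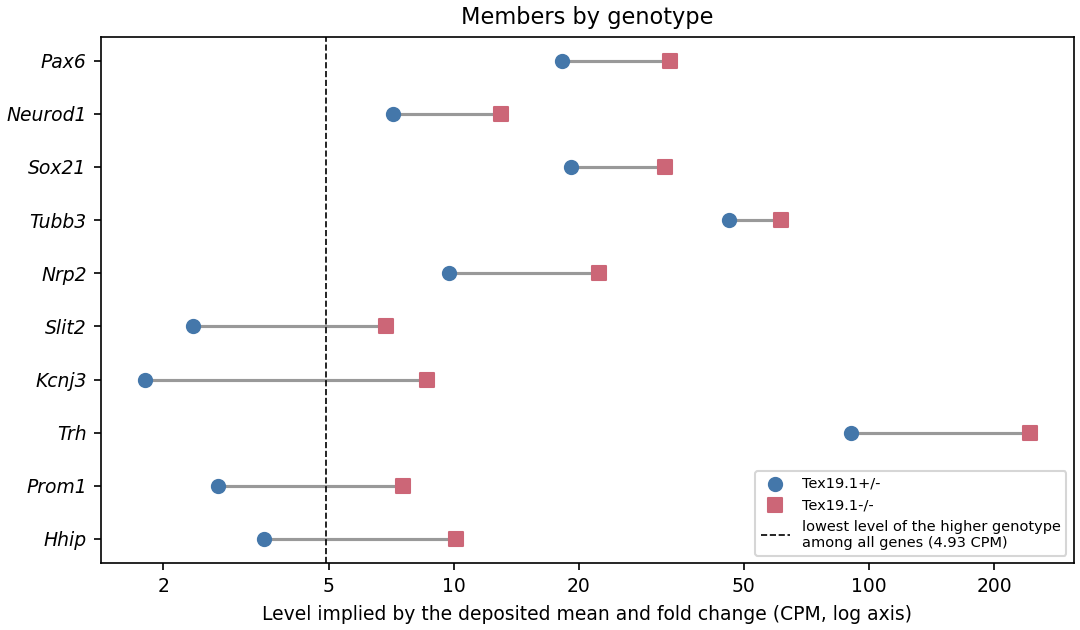
Level of each of the 10 members in Tex19.1+/- (circles) and Tex19.1-/- cells (squares), in CPM on a log axis, derived from the mean and fold change in the authors' deposited table. The circles of Slit2, Kcnj3, Prom1 and Hhip lie left of the dashed line at 4.93 CPM, the lowest level that the higher genotype reaches for any gene of the table.

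Those 4 scarce members carry a limit of their own. Over all genes, the derived level in whichever genotype was higher never fell below 4.93 CPM, so the table holds a gene only if at least one genotype reached about that level. Slit2, Kcnj3, Prom1 and Hhip were below 4.93 CPM in Tex19.1+/- cells and are listed through their Tex19.1-/- level alone. A gene of this kind had to be higher in Tex19.1-/- cells to be seen. There were 83 such genes in the table, 76 of them higher at an adjusted p under 0.05, with a median log2 fold change of 0.55. Pax6, Neurod1, Sox21, Tubb3, Nrp2 and Trh were above 4.93 CPM in both genotypes. The reverse limit holds for the 192 genes below that level in Tex19.1-/- cells, which had to be lower there to be seen. Among them were 6 of the 11 measured endoderm markers.

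Per kilobase of annotated exon, the scale on which genes can be compared, the order of mean levels changed little. Trh, with its short transcript, had 121 CPM per kilobase and Tubb3 28.8, both above the 7.47 of the median gene. Sox21 had 6.77, Neurod1 3.69, Pax6 2.20 and Nrp2 1.36 CPM per kilobase. Kcnj3 at 1.00, Hhip at 0.75, Prom1 at 0.72 and Slit2 at 0.18 CPM per kilobase formed the low end. Slit2 has 25433 bases of annotated exon, counting every base of any transcript, which lowers its value on this scale. Without values per library, it cannot be said which neighbours in this order differ beyond their spread.

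In fold change the order was different. Kcnj3 had the largest log2 fold change of the members, 2.25, a 4.77-fold higher level, and ranked 2 among all genes of the authors' deposited table. Slit2 at 1.54, Hhip at 1.53, Prom1 at 1.48 and Trh at 1.43 held ranks 8 to 11 in the authors' deposited table. Trh stands apart from the other 3, since its mean is 167 CPM and theirs are below 8 CPM. Nrp2 at 1.20 was 2.30-fold higher. Pax6 and Neurod1 had the same value, 0.87, and Sox21 0.75, which are rises of 1.82-fold, 1.82-fold and 1.69-fold. Tubb3 had the smallest, 0.42 or 1.34-fold, in the authors' deposited table. All 10 members were called higher, against 25.2% of all genes, and 6 were at least 2-fold higher, against 0.365% of all genes. The weakest of them, Tubb3, had an adjusted p of 6.47e-19 in the authors' deposited table. These counts follow from how the members were chosen.

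**Figure D2:**
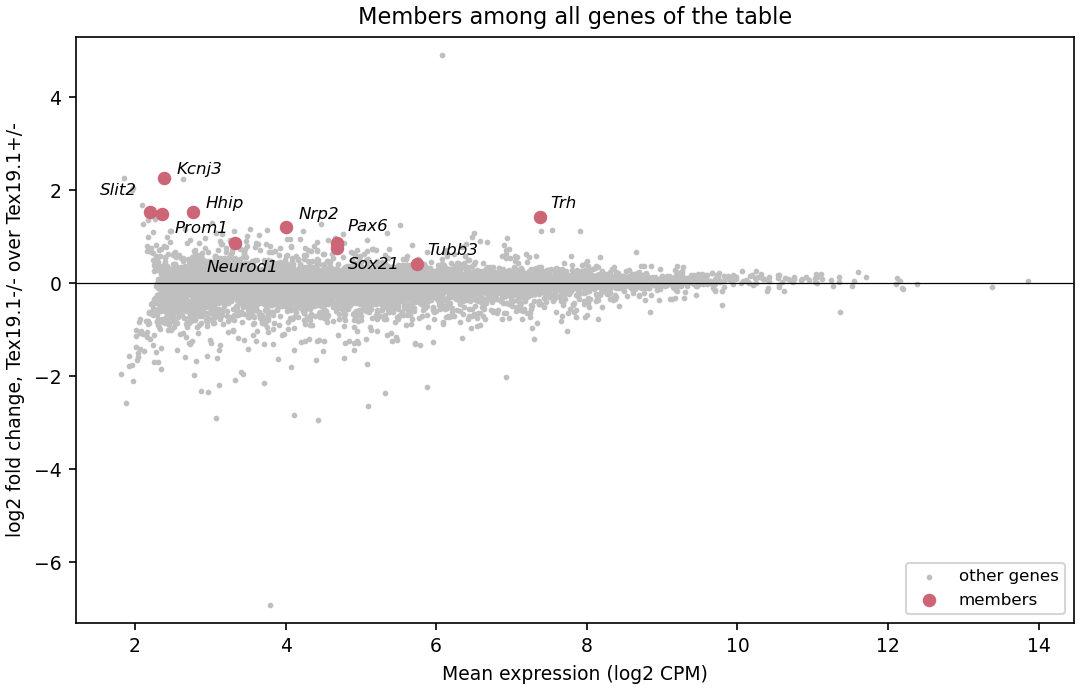
Log2 fold change (Tex19.1-/- over Tex19.1+/-) against mean expression (log2 CPM) for every gene of the authors' deposited table, with the 10 members in red. Kcnj3 at 2.25 is the highest member and Tubb3 at 0.42 the lowest. Trh stands clear of the other genes at its level, but members were chosen to be high.

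The spread of fold changes narrows with expression. Each member was therefore also set beside genes near it in mean expression, the same number for each. Slit2 and Prom1 were set beside the same genes, those lowest in mean expression, which cannot be centred on both. Members were chosen to be high, so the ranks and distances below follow from that choice and support nothing. Slit2, Kcnj3, Prom1 and Hhip are also listed through their Tex19.1-/- level alone. No gene of like expression had a higher fold change than Trh, Nrp2, Kcnj3 or Hhip. For Pax6 there was 1 such gene, for Sox21 3, for Neurod1 and Tubb3 4 each, for Slit2 5 and for Prom1 6. Measured from the median of those genes in units of their scaled median absolute deviation, Trh was 10.6 units away. Nrp2 was 6.21, Kcnj3 5.85, Hhip 5.28 and Pax6 5.19 units away. Sox21 at 4.48, Neurod1 at 4.33, Slit2 at 3.32, Prom1 at 3.20 and Tubb3 at 2.77 units were closer. Among low genes the deviation itself was wide, 0.49 around Slit2 and Prom1 against 0.13 around Trh, on the log2 scale. A gene with a mean below 4.93 CPM is listed only if its genotypes differ, so little-changed genes are missing there. The units of Slit2 and Prom1 are therefore not comparable with those of Trh.

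The sequence before the start of 4 members shows how unlike their promoters are. RefSeq windows (GRCm38.p6) were found for all 10 members, 12 windows in all, because Pax6 and Prom1 have 2 each. Every window runs from 250 bases before a start to 50 after it. The 4 below are Kcnj3, with the largest fold change, Trh, with the highest level, Sox21, which rose where its neighbours fell, and Hhip, which like Trh has many CpG dinucleotides. Only the 250 bases before the start are printed, 5′ to 3′ on the gene's own strand, at chr2:55435720-55435969 (plus strand) for Kcnj3, chr6:92244651-92244900 (minus) for Trh, chr14:118237031-118237280 (minus) for Sox21 and chr8:80058009-80058258 (minus) for Hhip. Capitals mark every match, on either strand, to one of the motifs named in the next paragraph.
Kcnj3: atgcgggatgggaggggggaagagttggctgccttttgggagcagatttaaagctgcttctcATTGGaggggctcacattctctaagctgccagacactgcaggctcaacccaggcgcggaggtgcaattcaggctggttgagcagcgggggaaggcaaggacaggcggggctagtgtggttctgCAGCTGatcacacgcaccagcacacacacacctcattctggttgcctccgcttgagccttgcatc
Trh: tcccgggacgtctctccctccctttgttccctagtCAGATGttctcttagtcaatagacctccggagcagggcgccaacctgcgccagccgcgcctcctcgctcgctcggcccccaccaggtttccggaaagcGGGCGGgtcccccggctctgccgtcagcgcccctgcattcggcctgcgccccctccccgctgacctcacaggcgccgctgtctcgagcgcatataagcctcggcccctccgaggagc
Sox21: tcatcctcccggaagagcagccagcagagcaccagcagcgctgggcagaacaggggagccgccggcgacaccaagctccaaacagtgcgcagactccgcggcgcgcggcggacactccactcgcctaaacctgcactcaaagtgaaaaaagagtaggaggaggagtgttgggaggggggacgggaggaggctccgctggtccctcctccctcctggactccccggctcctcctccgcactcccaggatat
Hhip: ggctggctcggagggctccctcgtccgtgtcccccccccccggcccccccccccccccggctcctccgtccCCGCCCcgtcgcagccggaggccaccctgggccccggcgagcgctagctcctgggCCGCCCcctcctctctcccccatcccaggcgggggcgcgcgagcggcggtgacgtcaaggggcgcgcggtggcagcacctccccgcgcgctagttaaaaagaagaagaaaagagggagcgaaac
The stretch of Kcnj3 holds 7 CpG, that of Sox21 17, that of Trh 25 and that of Hhip 28. Sox21 has no capitals, as no motif matched in it.

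The 10 motifs searched on both strands were the left and right parts of RE1, the site of the neuronal gene repressor REST (TTCAGCACC for the left, GGACAGC for the right), 4 E-boxes that bHLH factors bind (spelled out with their counts), the SOX motif ACAAT, the GC box GGGCGG, the TATA box TATAAA and the box named by its letters, CCAAT. No motif contains another. The GC box was the most frequent, in 8 of the 12 member windows, and in 66.0% of the 9802 windows of measured genes (35.7% of all 32851 windows). CCAAT was in 4 of 12, those of Kcnj3 and Tubb3 and 1 each of Pax6 and Prom1, against 38.3% of windows of measured genes. Each E-box was in 1 member window. The Kcnj3 window held CAGCTG, present in 14.6% of windows of measured genes, that of Trh held CAGATG (10.5%), that of Neurod1 held CATATG (1.52%) and 1 of those of Prom1 held CAGGTG (17.5%). The E-boxes of Kcnj3 and Neurod1 read the same on both strands. ACAAT was found for Pax6 and Tubb3 (19.7% of windows of measured genes) and TATAAA for Slit2 (6.29%). The longer part of RE1 was in 0 of the 12 and the shorter in 1, that of Tubb3, against 0.408% and 7.58%. The member windows held 4 to 37 CpG, from the second Prom1 start to Nrp2, with a median of 24 against 22 for windows of measured genes. A match describes letters in a window, and these windows were not tested for binding.

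The 3 transcription factor members rose together with several, but not all, measured genes of the same class. Pax6 is a paired-box factor of neural progenitors and eye, Neurod1 a proneural bHLH factor that drives neurons to differentiate, and Sox21 a factor of the SoxB group that can counteract Sox2. Of 41 other listed neural transcription factors 12 were measured, and 8 rose and 4 fell, with a median log2 fold change of 0.34. Smallest in p-value were Otx2, a forebrain and epiblast homeobox gene, at 1.12, Sox4 at 0.73, Zic2 at 0.58 and Pou3f1, a POU factor of epiblast and neural cells, at 1.16, by the authors' deposited table. Pou3f1 shares the limit of the scarce members, with a derived level of 3.92 CPM in Tex19.1+/- cells. Sox2, the SoxB gene that sustains both pluripotency and neural progenitors, had 0.23 (adjusted p = 5.86e-09) by the authors' deposited table. Its relative Sox1, an early marker of committed neural plate and chosen here after its value was seen, went the other way at -0.47 (adjusted p = 2.36e-11) according to the authors' deposited table. Sox3 and many later neural factors on the list were not analysed here.

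Around Neurod1, the bHLH partners and their antagonists moved in both directions. Of 34 listed genes 10 were measured, and 5 rose, 2 fell and 3 did not pass, with a median of 0.09. Insm1, a zinc finger gene of neuronal and endocrine progenitors, was at 1.12, Hes6, which favours neuronal differentiation, at 0.40, and Tcf3, which encodes the E proteins that pair with proneural factors, at 0.26 in the authors' deposited table. Insm1 had a derived level of 3.48 CPM in Tex19.1+/- cells and is listed through Tex19.1-/- cells alone. Of the other E protein genes, Tcf12 had 0.13 (adjusted p = 0.0289) and Tcf4 -0.06 (adjusted p = 0.348) by the authors' deposited table. Id proteins bind E proteins and so block proneural factors. Id1, a BMP target, had the smallest p-value of this list at -0.62, while Id2 was at 0.28 and Id3 at -0.15 in the authors' deposited table. Measured against the median of its 20 nearest genes on the chromosome, Id3 was at 0.02, which is no fall. Hes1, the Notch effector that represses proneural genes, was at 0.01 (adjusted p = 0.888) according to the authors' deposited table.

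Notch signalling, by which neighbouring cells hold one another back from neuronal fate, was divided. Of 30 listed genes 21 were measured, and 7 rose, 7 fell and 7 did not pass, with a median of -0.05. The ligand gene Dll1 was at 0.56, the receptor gene Notch4 at -0.32, the receptor-cleaving protease gene Adam10 at -0.33 and the Notch glycosyltransferase gene Rfng at -0.28 in the authors' deposited table. REST and its corepressors, which keep neuronal genes silent outside the nervous system, were divided too. Of 19 measured out of 21, 4 rose, 5 fell and 10 did not pass, with a median of 0.00 (-0.0022). Rest itself was abundant, at a mean of 326 CPM, and its log2 fold change was 0.06 (adjusted p = 0.193) according to the authors' deposited table. Among its partners the histone reader gene Phf21a stood at -0.43, the corepressor gene Rcor2 at 0.31, the H3K9 methyltransferase gene Ehmt2 at -0.42 and the phosphatase gene Ctdsp1 at -0.31 in the authors' deposited table.

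Tubb3 encodes the beta tubulin that marks neurons. In the authors' deposited table most other measured tubulins rose too, and of them Tuba3a alone rose more than Tubb3. Of 18 other listed tubulin genes 13 were measured, and 9 rose, 1 fell and 3 did not pass, with a median of 0.13. Tuba3a was at 0.62, Tubb2b at 0.25, Tubg1, the tubulin of microtubule nucleation, at 0.25 and Tubb2a at 0.22 according to the authors' deposited table. The dominant beta tubulin gene Tubb5, at a mean of 1500 CPM, was at 0.17 (adjusted p = 1.53e-05) according to the authors' deposited table. Among the 5 other beta tubulins 4 rose and 1, Tubb6, fell, with log2 fold changes from -0.12 to 0.25, so all of them lay below the 0.42 of Tubb3. Tubulin genes are close in sequence, so reads may have been shared between them. The call of Tubg1 was lost relative to its 20 nearest genes on the chromosome, at 0.08. Relative to genes of like expression 6 rather than 9 tubulins rose.

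Genes of the neuronal cytoskeleton, growth cone and axon adhesion moved strongly in both directions. Of 41 listed genes 31 were measured, and 18 rose, 9 fell and 4 did not pass, with a median of 0.15. Stmn2, a microtubule destabiliser of growth cones, had the smallest p-value at 0.98 and went from 82.8 to 164 CPM. The microtubule-associated protein genes Mapt, which encodes tau, and Map1a stood at -0.95 and -0.76, against 0.70 for Dpysl5, a collapsin response mediator that relays semaphorin signals, in the authors' deposited table. Of the 5 measured collapsin response mediator genes (the Dpysl genes and Crmp1) 4 rose and 1 did not pass. Dpysl4, among the risers, had a derived level of 4.50 CPM in Tex19.1+/- cells and is listed through Tex19.1-/- cells alone. Of 4 microtubule-associated protein genes 2 rose, Map2 and Map1b, and 2 fell. Against its 20 nearest genes on the chromosome Map1b turned to -0.03. A shorter list of mature neuron markers had 5 of 15 genes measured, of which 4 rose and 1, the neurofilament gene Nefl, fell. Their summed level was 190 CPM in Tex19.1+/- and 266 CPM in Tex19.1-/- cells, of which Stmn2 made up 82.8 and 164 CPM. The other 10 markers were not analysed here. Gad1, among the 4 risers, had a derived level of 3.80 CPM in Tex19.1+/- cells and is listed through Tex19.1-/- cells alone. Nefl, at -0.26 in the authors' deposited table, stood at 0.43 against its 20 nearest genes on the chromosome. Of the 10 listed glial markers 2 were measured, with 0 higher and 1 lower, and their summed levels were 29.0 and 27.9 CPM.

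**Figure D3:**
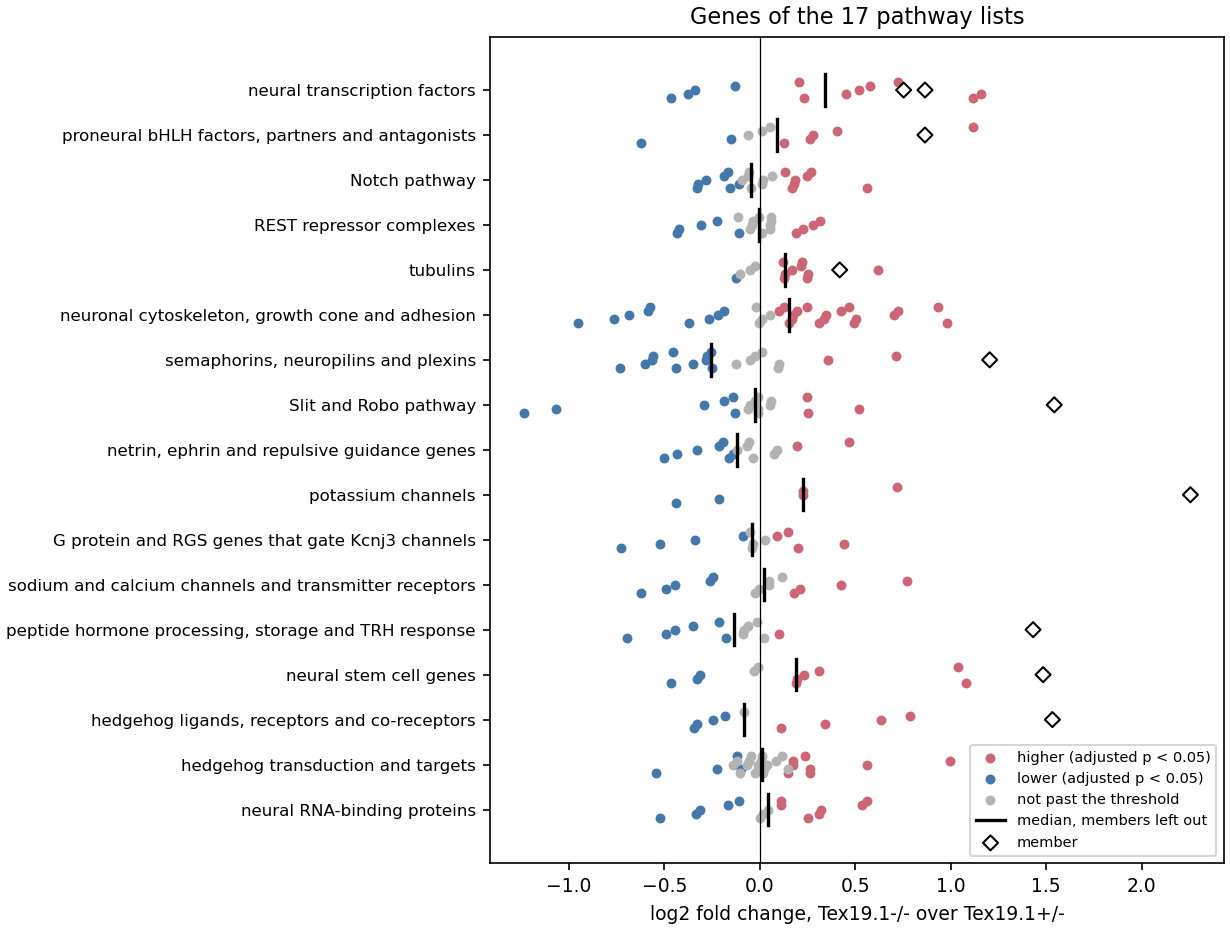
Log2 fold change (Tex19.1-/- over Tex19.1+/-) of the measured genes of 17 pathway lists, 1 point per gene, in red where higher and blue where lower at an adjusted p under 0.05. Black bars are list medians without the members, which are drawn as open diamonds. Nrp2, Slit2, Kcnj3, Trh, Prom1 and Hhip lie above the other genes of their lists, as members were chosen to be high, and the bars range from -0.25 for semaphorins, neuropilins and plexins to 0.34 for neural transcription factors.

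Nrp2 encodes neuropilin-2, a receptor that pairs with plexins to sense class 3 semaphorins and that also binds VEGF-C. While Nrp2 rose, most measured genes of the wider semaphorin and plexin system did not. The list reaches beyond the partners of Nrp2, as it also holds semaphorins of other classes. Of 38 other listed genes of this system 19 were measured, and 2 rose, 11 fell and 6 did not pass, with a median of -0.25. Among 8 semaphorin genes 1 rose, 5 fell and 2 did not pass. The riser was Sema3e, a class 3 semaphorin, at 0.71, against -0.73 for Sema4a and -0.57 for Sema6c in the authors' deposited table. Among 6 plexin genes 1 rose, 3 fell and 2 did not pass, and of the co-receptors of neuropilins Plxna1 was at -0.28 (adjusted p = 3.76e-12) and Plxna3 at 0.01 (adjusted p = 0.88) according to the authors' deposited table. Vegfc, the growth factor that binds Nrp2, was at -0.56 in the authors' deposited table. Among the fallers, Sema7a and Plxnc1 had derived levels of 4.70 and 4.23 CPM in Tex19.1-/- cells and are listed through Tex19.1+/- cells alone. Nrp1 and the Nrp2 ligand Sema3f were not analysed here.

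Slit2 is a secreted repellent that acts through Robo receptors. Of 24 other listed genes of this pathway 17 were measured, and 3 rose, 6 fell and 8 did not pass, with a median of -0.03. The 2 measured receptors went apart: Robo4, known from endothelium, was at -1.24 and fell from 27.0 to 11.4 CPM, while Robo1, the axonal receptor, was at 0.25 (adjusted p = 4.55e-07) according to the authors' deposited table. Flrt3, an adhesion protein that also binds Robo1, was at -1.07, Srgap3, a GTPase-activating protein downstream of Robo, at 0.52 and Ext2, which builds the heparan sulfate that Slit needs, at -0.29 according to the authors' deposited table. Flrt3 had a derived level of 4.63 CPM in Tex19.1-/- cells and is listed through Tex19.1+/- cells alone. The call of Ext2 was lost relative to its 20 nearest genes on the chromosome, at -0.10. Robo2 was not analysed here. Among netrins, ephrins and other guidance genes 15 of 33 were measured, and 2 rose, 7 fell and 6 did not pass, with a median of -0.12. Epha2 was at -0.50, Ephb3 at -0.43, Ephb2 at -0.33 and the ligand gene Efnb3 at 0.47 in the authors' deposited table. Of the 7 measured Eph receptor genes 5 fell and 1 rose. Ephb6, among the fallers, had a derived level of 4.86 CPM in Tex19.1-/- cells and is listed through Tex19.1+/- cells alone.

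Kcnj3 encodes a subunit of the potassium channels that G protein beta-gamma dimers open in neurons and heart, where it assembles with other Kcnj subunits. No other Kcnj gene was measured. Beside Kcnj3 the table held 5 potassium channel genes, of which 3 rose and 2 fell. The leak channel genes Kcnk1 and Kcnk5 were at 0.72 and 0.23, and Kcnk6 at -0.44 in the authors' deposited table. Of 28 listed G protein and RGS genes that act on such channels 12 were measured, and 4 rose, 4 fell and 4 did not pass, with a median of -0.04. The regulator gene Rgs3 was at -0.73, the gamma subunit genes Gng2 and Gng12 at -0.34 and -0.52, and Gng3, a neuronal gamma subunit, at 0.44 in the authors' deposited table. Kcnk6, Rgs3 and Gng12 had derived levels of 4.76, 4.02 and 3.86 CPM in Tex19.1-/- cells and are listed through Tex19.1+/- cells alone. The abundant Gnb1 and Gnai2 had 0.09 and -0.09 by the authors' deposited table, and neither call held relative to the 20 nearest genes on the chromosome. Sodium and calcium channels and transmitter receptors were divided, with 4 higher, 5 lower and 5 not past the threshold of 14 measured, and a median of 0.02. The calcium channel subunit gene Cacng7 at -0.45, the kainate receptor gene Grik3 at -0.49 and the acetylcholine receptor gene Chrna9 at -0.62 fell, and the NMDA receptor gene Grin1 rose at 0.77 in the authors' deposited table. Grin1 had a derived level of 3.94 CPM in Tex19.1+/- cells and is listed through Tex19.1-/- cells alone.

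Trh encodes the precursor of thyrotropin-releasing hormone, a short peptide of hypothalamic neurons that is cut out of the precursor by convertases and then amidated. The list used was wider than these steps, as it also held genes of peptide storage and of the response to the hormone. Most of its measured genes did not rise. Of its 38 other genes 12 were measured, and 1 rose, 6 fell and 5 did not pass, with a median of -0.13. The convertase genes Pcsk6 and Furin were at -0.69 and -0.49, the carboxypeptidase gene Cpe at -0.44 and Pgpep1, a peptidase that can inactivate the hormone, at -0.35 in the authors' deposited table. Cpe had a derived level of 4.45 CPM in Tex19.1-/- cells and is listed through Tex19.1+/- cells alone. Pcsk6 went from 91.8 to 56.8 CPM. Pam, which amidates the peptide, had -0.08 (adjusted p = 0.332) by the authors' deposited table. The single riser, chosen after its value was seen, was the peptidase gene Prep at 0.10 (adjusted p = 0.035) according to the authors' deposited table. Pcsk1 and the receptor genes of the hormone were not analysed here.

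Prom1 encodes prominin-1, also called CD133, a glycoprotein of membrane protrusions that is used as a surface marker of neural stem cells. Of 19 other listed neural stem cell genes 11 were measured, and 6 rose, 3 fell and 2 did not pass, with a median of 0.19. Cd24a, a surface protein of neuroblasts and many epithelia, was at 1.08 and went from 26.1 to 55.2 CPM. The N-cadherin gene Cdh2 was at 1.04, Pea15a at -0.47 and the intermediate filament gene Vim at -0.33 in the authors' deposited table. Prom2 was not analysed here.

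Hhip encodes a membrane protein that binds hedgehog ligands and is itself a target of the pathway, so that it acts as negative feedback. Ptch1, the hedgehog receptor and another feedback target, was at 0.63 and rose from 115 to 178 CPM. Of 21 other listed ligands, receptors and co-receptors 9 were measured, and 4 rose, 4 fell and 1 did not pass, with a median of -0.08. The glypican genes Gpc3 and Gpc4 were at 0.79 and 0.34, Scube3 at -0.33 and the co-receptor gene Cdon at -0.25 in the authors' deposited table. Smo, the signal transducer, was at 0.11 (adjusted p = 0.0286) according to the authors' deposited table and did not pass relative to its 20 nearest genes on the chromosome. Gpc4 did not pass on that scale either. Of 33 listed genes of transduction and targets 29 were measured, and 8 rose, 4 fell and 17 did not pass, with a median of 0.01. Those with the smallest p-values were Mycn at 1.00 and Ccnd1 at 0.56, growth genes that respond to hedgehog among many other signals, Csnk1e at -0.54 and Arrb2 at 0.26 in the authors' deposited table. The transcription factor genes Gli2 and Gli3 were at 0.02 (adjusted p = 0.653) and -0.06 (adjusted p = 0.434), and Gli1, a direct target and chosen after its value was seen, at 0.17 (adjusted p = 0.000147) according to the authors' deposited table. Sufu, the inhibitor of Gli proteins, was at 0.02 (adjusted p = 0.789) according to the authors' deposited table. Hedgehog ligand genes were not analysed here.

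Over the 17 pathway lists together, 264 genes other than the members were measured, of which 95 (36.0%) rose and 85 (32.2%) fell, beside 25.2% and 26.5% of all genes, and their median log2 fold change was 0.00 (-0.0044). The 5 of these genes that rose at least 2-fold were Cd24a, Cdh2, Insm1, Otx2 and Pou3f1. Like the 4 scarce members, 5 of the 264 were below 4.93 CPM in Tex19.1+/- cells and 9 were below it in Tex19.1-/- cells. Neural RNA-binding proteins, the list not yet described, had 15 of 22 genes measured, with 7 higher, 5 lower and 3 not past the threshold, and a median of 0.04. The splicing regulator gene Ptbp2 was at 0.56, Nova2 at 0.54, Ptbp3 at -0.33 and Celf5 at -0.52 in the authors' deposited table.

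The members lie on 6 chromosomes. Among the 5 measured genes on each side, no neighbour had a fold change above that of its member for any of the 10. That follows largely from the choice of high genes as members. With 10 genes on each side, 1 neighbour of Prom1, the member Slit2 at 1.54, was above it. Sox21 stood out against its surroundings. It lies on chromosome 14 from 118233232 to 118237030 (GRCm38, minus strand), where 9 of its 10 nearest measured genes fell and 0 rose, with a median log2 fold change of -0.68. The genes next to it, Gpr180 at -0.67 and the transporter gene Abcc4 at -0.85 in the authors' deposited table, lie 69.97 kb and 245.7 kb away. With 10 genes on each side 19 of 20 fell and 1 did not pass. Relative to the median of these 20 neighbours Sox21 was at 1.41 in place of 0.75.

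Prom1 had a second riser beside it. It lies on chromosome 5 from 43993620 to 44102032 (minus strand). Of its 10 nearest measured genes 8 rose, 1 fell and 1 did not pass, with a median log2 fold change of 0.12. The next gene, Fgfbp1, which encodes a secreted carrier of fibroblast growth factors, ends 11.8 kb away and was at 1.13 (adjusted p = 1.92e-45), while Tapt1 on the other side was at -0.10 (adjusted p = 0.0876) according to the authors' deposited table. Further genes on the Fgfbp1 side, chosen after their values were seen, were Cd38 at 0.55 and Cc2d2a at 0.57 in the authors' deposited table. Between them Fbxl5 was at 0.11, and Cpeb2, the next gene beyond Cc2d2a, fell at -0.23 in the authors' deposited table. Slit2 is on the same chromosome, from 47983138 to 48307733, with 6 measured genes between it and Prom1.

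Around the members other than Sox21 and Prom1 the neighbour medians ran from -0.09 to 0.10. Kcnj3 (chromosome 2, 55435970 to 55598145), Neurod1 (chromosome 2, 79452521 to 79456751) and Pax6 (chromosome 2, 105668900 to 105697364) had neighbour medians of 0.01, 0.05 and 0.07 over 5 genes on each side. On chromosome 2 the nearest measured genes were Arl6ip6 at -0.01 and Gpd2 at -0.24 beside Kcnj3, Ube2e3 at 0.30 and Ssfa2 at -0.01 beside Neurod1, and Rcn1 at -0.37 on one side of Pax6, by the authors' deposited table. Of these Ube2e3 rose, and Gpd2 and Rcn1 fell. Elp4, whose introns hold Pax6 enhancers and which lies 3.66 kb from it, was at 0.06 (adjusted p = 0.367) according to the authors' deposited table. The median was -0.01 around Trh (chromosome 6, 92242061 to 92244650), -0.02 around Hhip (chromosome 8, 79965851 to 80058006), -0.07 around Tubb3 (chromosome 8, 123411424 to 123422015), -0.09 around Nrp2 (chromosome 1, 62703285 to 62818695) and 0.10 around Slit2. Of the 10 neighbours of Slit2, 6 rose, 0 fell and 4 did not pass, so that median hides mostly small rises. The nearest measured genes had log2 fold changes of -0.01 (Rbsn) and -0.27 (Adamts9) for Trh, 0.01 (Anapc10) and -0.06 (Smarca5) for Hhip, and -0.15 (Tcf25) and -0.06 (Def8) for Tubb3, by the authors' deposited table. For Nrp2 they were -0.19 (Raph1) and -0.55 (Ino80d), and for Slit2 0.03 (Lcorl) and 0.24 (Adgra3), by the authors' deposited table. Adgra3 rose, Adamts9, Tcf25, Raph1 and Ino80d fell, and the other 5 did not pass. In the GENCODE annotation 9 of the 10 members, all but Trh, overlap other annotated genes, 18 in all and 0 of them in the table. Neurod1 overlaps Cerkl on the same strand, and Tubb3 overlaps the gene model Gm20388, also on the same strand. Whether reads there were counted by strand or left out as ambiguous is not given in the sources used here, so these values are uncertain to that extent.

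**Figure D4:**
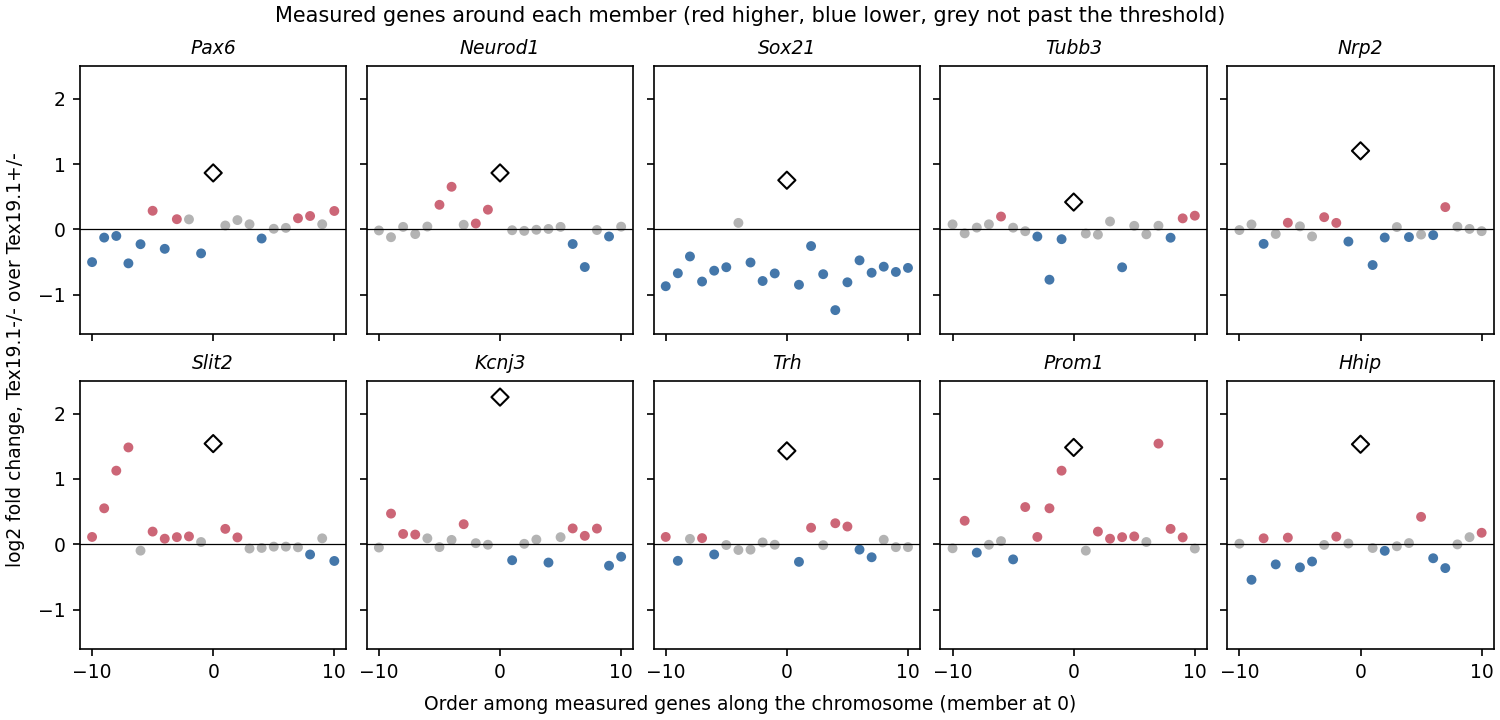
Log2 fold change (Tex19.1-/- over Tex19.1+/-) of up to 10 measured genes on each side of each member, in their order along the chromosome, with the member as an open diamond at 0. Red points were higher, blue lower and grey not past an adjusted p of 0.05, and 19 of the 20 points around Sox21 are blue.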

How the data were processed

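Messenger RNA of 6 libraries was prepared with a stranded TruSeq kit and sequenced in pairs of 150-base reads, per the labels' protocols. Trimming with Trim Galore 0.4.1, TopHat2 2.1.0, HTSeq 0.11.2, edgeR and the build mm10 are listed per the submitters' processing notes. Annotation, strand setting, filter and form of test: not given in the sources used here. For 10128 genes the deposited columns are, per the file headers, log2 fold change, mean log2 CPM, p-value and adjusted p-value (false discovery rate). Their adjusted p-values equal Benjamini-Hochberg values within 6.7e-05.

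The members and gene lists were chosen with earlier results of these data known. No value of a single library was used, so a planned count model, leave-one-out fits and likeness of patterns could not be applied, and precision rests on the authors' p-values. Called means an adjusted p under 0.05 over all genes. Genes named are the members, Tex19.1, listed partners, the nearest measured gene on each side of a member, and up to 4 genes per list with the smallest p. Of cell type marker lists mainly summed levels are given in place of single genes, and 1 further gene that this rule names is not reported here. Others are marked as chosen after their values were seen. Positions and exon lengths come from GENCODE M21 on GRCm38, the assembly of mm10 (9587 symbols matched, 136 through older symbols, 405 unplaced). Recentred fold changes used the standard error that the authors' p implies. Alternatives were stricter thresholds, Bonferroni adjustment, genes of at least 16 CPM, and recentring on all genes, like-expressed genes, nearest genes or a lowess trend (span 0.3) on transcript length. Functions were checked on simulated data. Python 3.11.15, scipy 1.17.1 and statsmodels 0.14.6 were used.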

Additional observations from a re-analysis of the deposited data

How the results depend on the processing

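All 10 members stayed higher and past the threshold at an adjusted p under 0.01, with Bonferroni adjustment and after each recentring. After recentring their log2 fold changes ran from 0.38 (Tubb3) to 2.32 (Kcnj3). The members were chosen to be high in the same values, so this outcome follows from the choice and is no support. By construction, 6 remained with a 2-fold threshold and 5 among genes of at least 16 CPM. Listed genes that rose went from 95 to 59 with Bonferroni adjustment and to 5 with the 2-fold threshold, and those that fell from 85 to 2 with the latter. Of all genes, 2551 rose and 2685 fell, against 970 and 1443 with Bonferroni adjustment and 37 and 111 at 2-fold. Relative to the 20 nearest genes on the chromosome, 3 called genes named in the text turned: Nefl to 0.43, Id3 to 0.018 and Map1b to -0.03. Neighbour medians over 10 in place of 5 genes on each side moved by less than the SD of the 10 neighbours for every member. The smaller set lies within the larger and the SD is that of single genes, so this limit could hardly be passed. A trend on promoter GC content was void, because only 77.6% of genes had a window. No paired analysis was possible, because no value of a single library was used and the labels name no pairs of libraries. DESeq2, no filter and leaving out libraries were not run for the same lack of values per library.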
